A study of Saccharomyces cerevisiae with 4 samples.

Results

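The mitochondrial ribosomal protein genes of budding yeast were examined on 4 arrays. They were taken as the probe sets of Saccharomyces cerevisiae whose symbol is MRPL, MRPS, MRP or RSM followed by digits alone, which gave 66 genes of 5449 measured, each with 1 probe set. Of these, 37 encode proteins of the large subunit of the mitochondrial ribosome and 28 were grouped with the small subunit. The remaining gene, MRP8, carries the name but is not a known part of the ribosome, and RSM22, grouped with the small subunit, resembles methyltransferases and is not counted among the structural proteins.

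Wild type was BY4742, an alpha haploid used in many laboratories, and the other strains lacked SIR2, SIR3 or SIR4. Per the labels, KanMX replaced each deleted gene through homologous recombination, and the label of a deletion strain does not name its parent or say how many clones were used. All 4 strains grew exponentially in YPD, a rich medium with glucose, at 30 °C. Each was represented by 1 array, so no test was possible, no value has a replicate check, and the precision of every difference is limited by that. The effect of the KanMX gene cannot be told apart from that of the deletions, since every deletion carries it.

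The mitochondrial ribosome translates a handful of mRNAs encoded in mitochondrial DNA, nearly all for membrane subunits of the respiratory chain and the ATP synthase. Almost all of its proteins are encoded in the nucleus, made in the cytosol and imported. In Saccharomyces cerevisiae mitochondrial translation is dispensable for growth on glucose and needed for growth on carbon sources that must be respired. Sir2, a histone deacetylase that uses NAD, forms with Sir3 and Sir4 the complex of silent chromatin at the silent mating loci and near chromosome ends.

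The values were log2 levels, and differences are log2 differences of a deletion from wild type unless another pair is named. All differences from wild type share the 1 wild-type array, so agreement among the 3 deletions does not come from independent comparisons. Where 3 values stand together they belong to the deletions of SIR2, SIR3 and SIR4, in that order. A gene was called where it differed at least 2-fold, a log2 difference of 1. Each deleted gene had a low value in its own strain, where SIR2 lay at 3.68, SIR3 at 4.51 and SIR4 at 3.05, against 9.96, 9.32 and 9.98 in wild type. The 4 alpha-type markers MF(ALPHA)1, MF(ALPHA)2, STE3 and SAG1 lay between 12.7 and 14.1 in wild type and were lower by 4.17 or more in every deletion, so mating-type expression moved with the deletions in all 3 strains, and its part in the values below was not tested. None of the 5 a-type markers was called. Background levels, set by probe sets of a different yeast on the same arrays, ran from 4.28 to 4.39.

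No mitochondrial ribosomal protein gene was called in any deletion. The 66 genes were measured well above background on all 4 arrays, from 8.24 to 12.1, so none was limited by a low signal. Of all genes, 2.86%, 2.4% and 1.45% were called. At a limit of 1.5-fold there was again no member, where 10.5%, 6.5% and 3.51% of all genes passed. Among the 3333 genes whose mean level lay in the range of the members, 2.04%, 1.53% and 0.69% were called and 8.94%, 4.59% and 2.13% passed 1.5-fold. The difference farthest from 0 was that of MRPL4 in the SIR3 deletion, 0.56, or 1.48-fold.

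The distribution of the members was narrower than that of all genes in each deletion. The middle 50% of the members spanned 0.26, 0.17 and 0.15. For the genes of the same level range the span was 0.42, 0.27 and 0.19. Over the 4 arrays a member ranged by 0.25 at the median, against 0.32 for the genes in that level range. For 39 of the 66 members no deletion differed from wild type by more than 0.25.

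**Figure D1:**
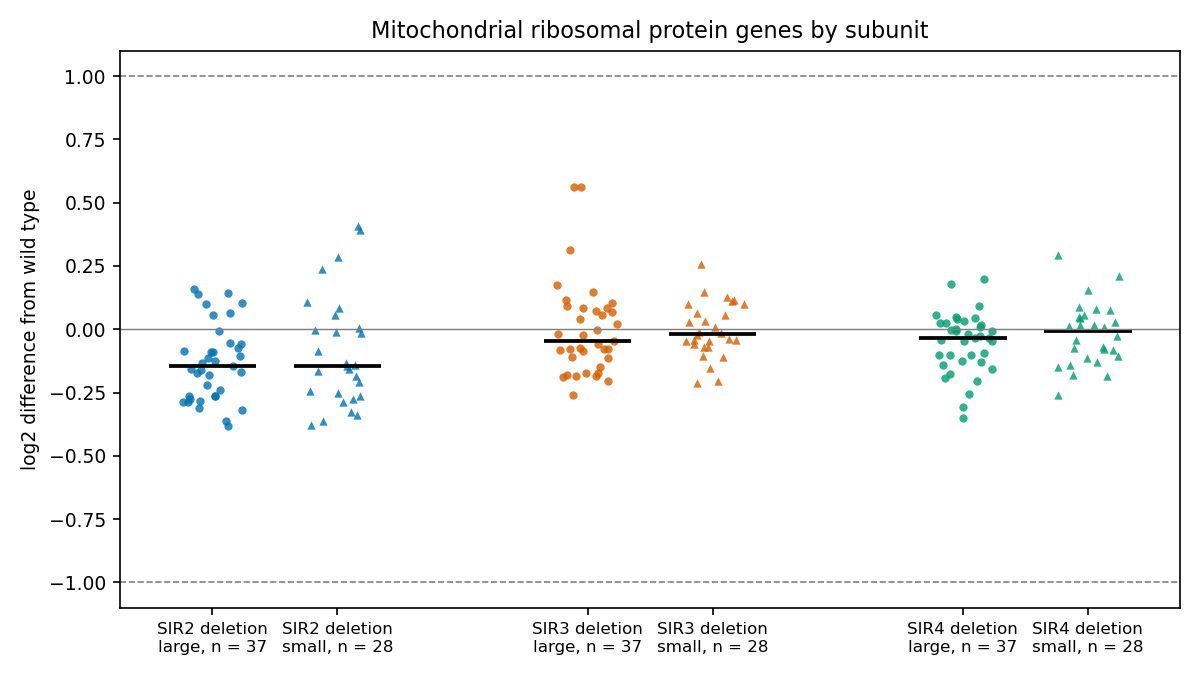
Log2 difference from wild type of each mitochondrial ribosomal protein gene (vertical axis) in the 3 deletions, split into large subunit (circles, 37 genes) and small subunit (triangles, 28 genes), without MRP8. Black bars are medians, each point is 1 gene from 1 array per strain, and dashed lines mark 2-fold, which no gene reaches; the SIR2 deletion has both medians near -0.14.

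The members as a group lay slightly lower than all genes in the SIR2 deletion and, with a median nearer to 0, in the SIR4 deletion. In the SIR2 deletion their median difference was -0.14, or 0.905-fold, with 50 of 66 below 0, or 75.8%. The median of all genes was 0.00 there, and 50.4% of all genes lay below 0. In the SIR3 deletion the median was -0.02, with 38 below 0, beside -0.01 and 51.6% for all genes. In the SIR4 deletion the median was -0.03, with 39 below 0, or 59.1%, beside 0.03 and 41.8% for all genes. Below the lower quartile of all genes lay 22, 11 and 26 of the 66 members, where 1362 of the 5449 genes lay by definition. Each array held the RNA of a whole culture, so less RNA in every cell and fewer cells with the usual amount cannot be told apart.

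Members on the high side were few in the SIR2 deletion, while the number on the low side was near that of all genes. At a limit of 1.2-fold, chosen after the values were seen, 16 members were lower in the SIR2 deletion, or 24.2%, near the 20.3% of all genes. Only 4 were higher, or 6.06%, where 19% of all genes were. In the SIR3 deletion 3 members were higher and 0 lower, against 11.4% and 14.1% of all genes. In the SIR4 deletion 1 was higher and 3 lower, against 8.46% and 7.19% of all genes. RSM7 was the one above that limit in the SIR4 deletion. The SIR2 array was the lowest of the 4 for 36 of the 66 members, or 54.5%, and for 33.2% of all genes. The wild-type array, the reference of every difference, was the highest for 25 members, or 37.9%, and for 20.9% of all genes. It was the lowest for 8 members, or 12.1%, and for 24.9% of all genes.

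The small subunit binds the mRNA and reads its codons. Its 28 genes had medians of -0.14, -0.02 and -0.01. Of them 20, 16 and 14 lay below 0, where 50.4%, 51.6% and 41.8% of all genes did. The median in the SIR4 deletion had no stable sign, being 0.01 without RSM22. The highest members of the SIR2 deletion were mostly of this subunit. RSM7, the counterpart of a bacterial protein of the head of the small subunit, was at 10.08 in wild type and at 10.49, 10.34 and 10.37. All 3 deletions were above wild type, with differences of 0.41, 0.26 and 0.29, the highest of the members in the SIR2 and SIR4 deletions.

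Among the genes of the small subunit, RSM19 and MRPS12 followed it in the SIR2 deletion. RSM19, also the counterpart of a protein of the bacterial head, was at 9.96 in wild type and at 10.35, 10.07 and 10.17 in the deletions. MRPS12, whose bacterial counterpart forms part of the decoding site, was at 11.78 in wild type and at 12.07, 11.84 and 11.94. Both were highest in the SIR2 deletion, by 0.39 and 0.28, and lay 0.12 and 0.06 above wild type in the SIR3 deletion. In the reference annotation of genome build R64 these genes are next to each other, the sole pair of neighbours among the 66. MRP4, the counterpart of a further bacterial small subunit protein, was at 9.63 in wild type, with differences of 0.24, 0.10 and 0.02.

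The lowest small subunit members of the SIR2 deletion were RSM18, RSM25, MRPS28 and RSM28. RSM18 was at 11.48 in wild type and at 11.10, 11.27 and 11.44. RSM25 was at 9.47 in wild type and at 9.11, 9.40 and 9.29. For both genes wild type was the highest array and the SIR2 deletion the lowest, by 0.38 and 0.36. RSM18 and MRPS28 have bacterial counterparts, while RSM25 and RSM28 are particular to mitochondrial ribosomes. MRPS28 differed by -0.34, 0.06 and -0.07, and RSM28 by -0.33, -0.01 and 0.01, so that for these genes the SIR2 array alone stood apart.

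Of the small subunit genes not yet named, MRP21 lay farthest from wild type, at -0.29 in the SIR2 deletion. MRPS17 differed by -0.27, -0.21 and -0.11 and MRPS16 by -0.25, -0.05 and -0.26. RSM23, which encodes a GTP-binding protein related to DAP3 of mammals, differed by -0.01, 0.15 and 0.07. The members nearest to wild type were all of this subunit. MRPS18 lay at 10.87, 10.86, 10.83 and 10.84, wild type first, and its 4 values spanned 0.037. MRP2 differed by at most 0.047 and RSM24 by at most 0.048.

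The large subunit joins the amino acids and passes the growing peptide through a tunnel to the inner membrane. Its 37 genes had medians of -0.15, -0.05 and -0.03. Of them 30, 22 and 24 lay below 0, where 50.4%, 51.6% and 41.8% of all genes did. No large subunit gene was 1.2-fold higher in the SIR2 deletion, where 19% of all genes were, and 10 were as much lower, or 27%, beside 20.3% of all genes. MRPL32, whose product is cut by a protease of the inner membrane before it joins the ribosome, was at 10.85 in wild type and at 10.47, 10.77 and 10.84 in the deletions. It was the lowest member of the SIR2 deletion, at -0.38, and within 0.08 of wild type in the others. MRPL38 was at 11.24 in wild type and at 10.88, 11.09 and 11.04, with wild type above every deletion.

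The members with the largest differences in the SIR3 deletion were MRPL4 and MRP20, and both were higher. Their bacterial counterparts sit side by side at the exit of the peptide tunnel. MRPL4 was at 8.36 in wild type and at 8.50, 8.92 and 8.35. MRP20 was at 8.95 in wild type and at 9.01, 9.51 and 9.13. In wild type both genes were well below the median level of the members, 10.63, and MRPL4 was the lowest member. Whether low level or shared site had a part in these values was not tested. For MRPL4 and MRP20 the SIR3 array was the highest, with differences of 0.56 and 0.56, and the other 3 arrays lay closer together. Of all genes, 3.05% had a difference in this deletion at or above that of MRP20.

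Other large subunit proteins whose bacterial counterparts line the tunnel exit had smaller differences in the SIR3 deletion. MRPL22 differed by -0.13, -0.05 and -0.19, and MRPL40, also highest on the SIR3 array, by -0.16, 0.18 and 0.03. This group of 4 was put together after its values were seen, and it may not hold every protein of the tunnel exit. MRPL3, a protein of the large subunit with the fold of a double-strand RNA nuclease, was at 10.61 in wild type and at 10.77, 10.92 and 10.64, again highest in the SIR3 deletion, by 0.31. The lowest large subunit genes of that deletion were MRPL44 at -0.26, MRPL33 at -0.20, MRPL50 at -0.19 and MRPL37 at -0.19, and these were lower in the SIR2 deletion too, at -0.32, -0.31, -0.29 and -0.17.

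In the SIR4 deletion the extremes among structural proteins were MRPL24 and MRPL17 on the low side. MRPL24 was at 9.52 in wild type and at 9.24, 9.62 and 9.17. MRPL17 was at 9.78 in wild type and at 9.49, 9.92 and 9.47. In both genes the SIR2 and SIR4 arrays lay below wild type and the SIR3 array above it. MRPL13 differed by -0.15, -0.17 and -0.26. On the high side of the SIR4 deletion, after RSM7 and RSM19, were MRPL36 at 0.20, MRP20 at 0.18, MRPS12 at 0.15 and MRPL11 at 0.09.

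**Figure D2:**
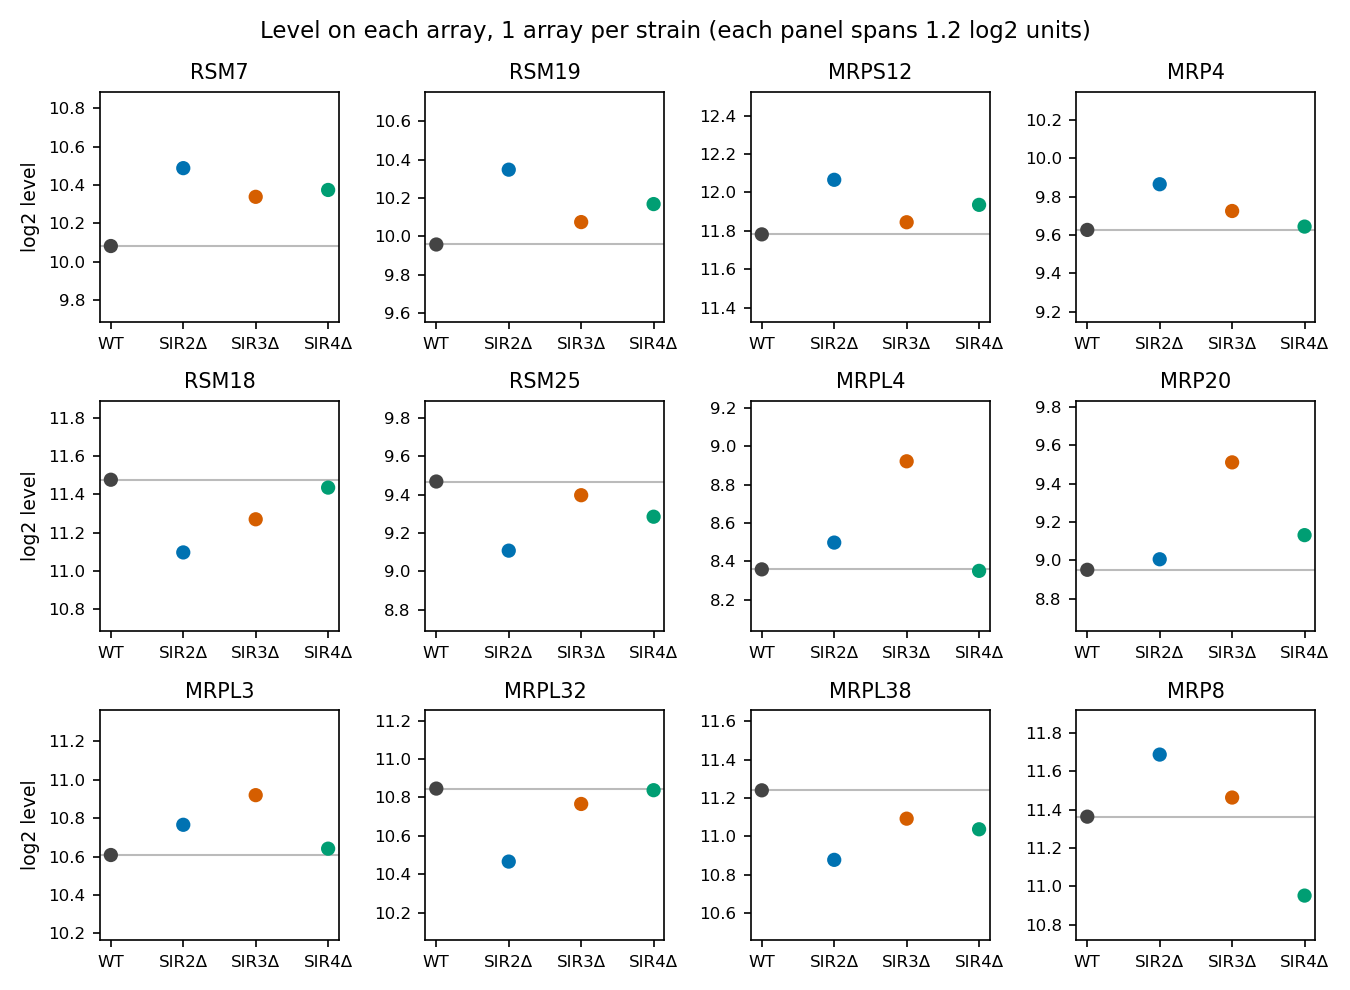
Log2 level on each of the 4 arrays (vertical axis; WT, wild type; Δ, deletion) for 12 mitochondrial ribosomal protein genes named in the text, with a grey line at the wild-type level and 1 point per array. MRPL4 and MRP20 are highest in the SIR3 deletion, RSM7, RSM19 and MRPS12 in the SIR2 deletion, and MRP8 has its lowest value, 10.95, in the SIR4 deletion.

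MRP8 varied more than any other member. It was at 11.36 in wild type and at 11.69, 11.46 and 10.95, highest in the SIR2 deletion and lowest in the SIR4 deletion. The SIR2 and SIR4 deletions differed by 0.74 in this gene, the sole member that passed 1.5-fold between any 2 arrays. That limit was passed by 8.41% of all genes between these deletions. RSM22 was at 8.50 in wild type, with differences of -0.26, 0.13 and -0.18.

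Between the deletions the members again lay close together. None was 2-fold apart between SIR2 and SIR3 deletions, between SIR2 and SIR4 or between SIR3 and SIR4, where 1.05%, 1.65% and 1.27% of all genes were. Between the first pair 4.75% of all genes, and between the last 5.27%, were 1.5-fold apart, and no member was. The SIR2 deletion lay below the SIR3 deletion in 47 of the 66 genes, with a median of -0.09, where 48.6% of all genes did, with a median of 0.00. It lay below the SIR4 deletion in 43, with a median of -0.08, where 55% of all genes did, with a median of -0.03. These comparisons share the SIR2 array. Between the SIR3 and SIR4 deletions the median was -0.01, with 32 genes above 0 and 34 below, where 56.4% of all genes lay below.

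Members with a counterpart in bacteria and members particular to mitochondrial ribosomes had similar values in the SIR2 deletion. The 40 genes of the first kind had medians of -0.13, -0.02 and -0.01, and the 24 of the second kind -0.16, -0.05 and -0.06. Of the second kind 19, 16 and 15 lay below 0, where 50.4%, 51.6% and 41.8% of all genes did. The 14 of these in the large subunit had the lowest medians of the 4 combinations of subunit and kind in each deletion, at -0.18, -0.08 and -0.10. The 10 in the small subunit had -0.08, -0.01 and 0.02.

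The symbols MRPL, MRPS, MRP and RSM do not cover every protein of this ribosome, and 15 genes under other names were measured. None of these was called, where 2.86%, 2.4% and 1.45% of all genes were. Their medians were 0.04, -0.05 and -0.05, so the lower values of the SIR2 deletion were not seen in the middle of this smaller list. Of these 15 genes 7, 9 and 9 lay below 0, where 50.4%, 51.6% and 41.8% of all genes did. YML6, the counterpart of a bacterial large subunit protein, was at 9.43 in wild type, with differences of 0.31, 0.26 and 0.18. QRI5 was at 10.38 and differed by -0.33, -0.42 and -0.23. EHD3 differed by 0.40, 0.22 and 0.09 and PPE1 by 0.23, -0.30 and 0.07, and both are also described as enzymes. Over all 81 genes together the medians were -0.13, -0.02 and -0.03.

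The genes that serve the mitochondrial ribosome were not called either, where 2.86%, 2.4% and 1.45% of all genes were. At those shares, lists this short would hold few called genes or none. Of 10 translation factor genes, TUF1, the elongation factor that brings charged tRNA, was at 11.75 in wild type, with differences of 0.38, 0.39 and 0.00. MEF2 differed by 0.53, 0.46 and 0.04 and MRF1, the release factor gene, by -0.35, -0.11 and -0.27. The medians of these 10 genes were 0.14, 0.04 and 0.00. They include FMT1, which was at 3.57 in wild type and lay below background on every array. Of 16 genes that charge mitochondrial tRNAs, 14, 13 and 8 lay above 0, where 49.5%, 48.3% and 58.1% of all genes did. The medians of these 16 were 0.13, 0.14 and 0.00. MST1, for threonine, had 0.47, 0.37 and 0.14, and PET112, a subunit of the enzyme that makes glutaminyl-tRNA, had -0.02, -0.32 and -0.03.

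The remaining lists of mitochondrial gene expression held 4 to 15 genes each. The 15 translational activators, which act on single mitochondrial mRNAs or groups of them, had medians of -0.14, -0.07 and 0.03, with ATP22 at 0.36, 0.39 and 0.32 and PET122 at -0.28, -0.04 and -0.39. The 7 genes for ribosome assembly and rRNA modification had -0.17, 0.07 and 0.06, with MTG1 at -0.38, -0.11 and -0.10 and MRM2 at 0.23, 0.23 and 0.10. The 5 genes for membrane insertion and ribosome receptors had 0.03, 0.25 and 0.03, with MBA1, a receptor for the mitochondrial ribosome at the inner membrane, at 0.26, 0.25 and -0.03 and MDM38 at -0.20, -0.01 and 0.04. AFG3 and YTA12 together form the inner membrane protease that cuts MRPL32. The 6 genes for cutting imported proteins and for MRPL32 processing had 0.08, 0.09 and 0.06, with AFG3 at 0.29, 0.05 and 0.17 and YTA12 at -0.03, 0.06 and -0.16. Of the 4 genes for mitochondrial transcription, the helicase gene MSS116 was lowest at -0.54, -0.16 and -0.23 and the polymerase gene RPO41 differed by -0.09, 0.02 and 0.03. Their medians were -0.12, -0.06 and -0.12.

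**Figure D3:**
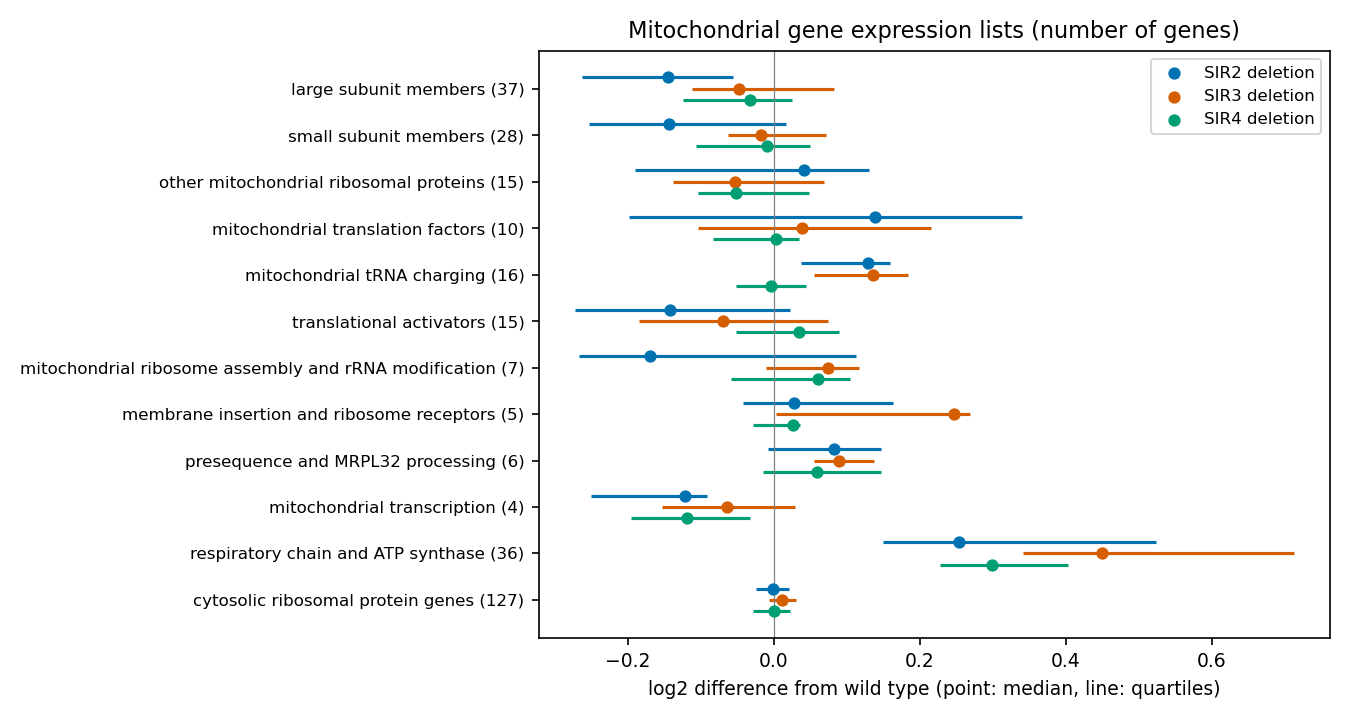
Median (point) and quartiles (line) of the log2 difference from wild type (horizontal axis) for the large and small subunit members, 9 further lists of mitochondrial genes and the cytosolic ribosomal protein genes, with the number of genes in brackets and 1 colour per deletion. The respiratory chain and ATP synthase genes stand to the right of 0 in every deletion, and their medians, 0.25, 0.45 and 0.30, are the highest of the lists plotted for each deletion.

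The nuclear genes of the respiratory chain and ATP synthase, many but not all of which encode partners of the products of the mitochondrial ribosome, differed from its genes in these strains. Of these 36 genes, 34, 36 and 36 lay above wild type, where 49.5%, 48.3% and 58.1% of all genes did. These counts share the wild-type array and are not independent. Their medians were 0.25, 0.45 and 0.30, against -0.14, -0.02 and -0.03 for the mitochondrial ribosomal protein genes, and these differences between lists have no test. The called genes were CYT1, of cytochrome c1, at 1.13 and 1.33 in the SIR2 and SIR3 deletions, SDH1, of succinate dehydrogenase, at 1.02 and 1.40, and QCR2, of the cytochrome bc1 complex, at 1.07 in the SIR3 deletion. ATP14, with the smallest mean difference of the list, had -0.07, 0.20 and 0.21.

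HAP4, the activating subunit of the HAP complex that turns on respiratory genes, was at 9.20 in wild type and at 9.82, 11.48 and 9.82. It was called in the SIR3 deletion, at 2.27, in which the members had a median of -0.02. PUF3, whose protein binds many mRNAs for mitochondrial proteins, ribosomal ones among them, was at 8.16 in wild type, with differences of -0.13, -0.11 and -0.16. None of the other 4 regulators measured, HAP1, HAP2, HAP3 and HAP5, was called.

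**Figure D4:**
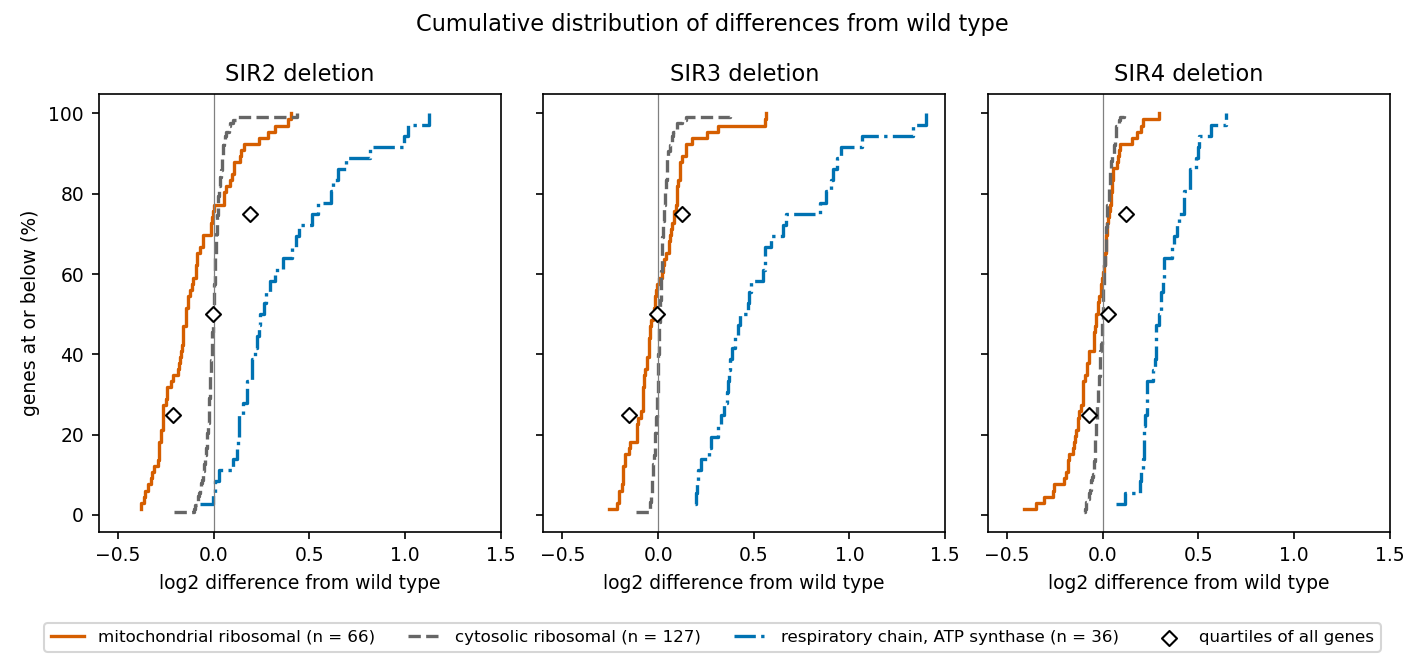
Cumulative share of genes (vertical axis, percent) at or below each log2 difference from wild type (horizontal axis) in the 3 deletions, for 66 mitochondrial ribosomal, 127 cytosolic ribosomal and 36 respiratory genes; diamonds mark the quartiles of all genes. In the SIR2 and SIR4 deletions the mitochondrial ribosomal curve lies left of the diamonds, with medians of -0.14 and -0.03. In each deletion the respiratory curve lies to the right.

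The genes of the cytosolic ribosome, which makes all proteins encoded in the nucleus, were closer still to wild type. The 127 measured had medians of 0.00, 0.01 and 0.00, and the middle 50% of them spanned 0.045, 0.037 and 0.052. None was called. Their median level was 14.6 on each array, near the top value of 15.2, and whether signals so near the top can show a difference in full was not tested. The RPS14B gene stood apart with 0.44, 0.38 and 0.08.

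In the order of genes along the chromosomes none of the 66 members was among the outermost 8 protein-coding genes of a chromosome end in the R64 annotation. The closest, MRPL27, was at place 22 from its end, followed by MRP21 and MRPL20 at place 23. It differed by -0.26, -0.11 and -0.10, MRP21 by -0.29, -0.04 and -0.13, and MRPL20 by -0.26, -0.17 and -0.12. The members lay on 14 of the 16 nuclear chromosomes.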

How the data were processed

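The deposited values are RMA summaries on the log2 scale, 1 for each probe set; the submitters' processing notes name RMA, and how it was set is not stated in the sources used here. RMA corrects the background, brings the arrays to 1 distribution and summarises the probes of each probe set. A shift of all genes in 1 direction therefore cannot be seen. No difference was taken between levels of different probe sets. Such levels were compared only to choose the brightest probe set, to set background and level range, and to call levels low or high. Per the labels, biotin-labelled cRNA was made from 200 ng of total RNA. Of 10928 probe sets, 5498 matched 5449 genes of the R64 reference table by identifier, with the brightest probe set used for the 47 genes with several. Of these, 66 matched the symbol rule. The 1746 probe sets of a different yeast gave the background, their 95th percentile on each array.

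With 1 array per strain no test was run; log2 differences from wild type were counted at 2-fold. The members and lists were chosen with earlier results of these data known. Named members were the 6 highest and 6 lowest per deletion, the 3 nearest to wild type, MRP8 and RSM22; from other lists, the called genes and those with the largest and smallest mean difference. Members outside this rule that the text names were chosen after their values were seen, as were RPS14B, TUF1, FMT1, EHD3 and PPE1. RPP1, an RNase P gene, was left out of the cytosolic list. Counting was tested on simulated data. Calculations used Python 3.11.15, numpy 2.4.6 and pandas 2.3.3, and figures matplotlib 3.10.9. Promoter and protein sequences were not used here.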

Additional observations from a re-analysis of the deposited data

How the results depend on the processing

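The count of 0 members called, and the median of the members in the SIR2 deletion, held under every alternative run: centring the arrays, repeating the quantile normalization over the probe sets of Saccharomyces cerevisiae, raising values to background, leaving out genes below background or probe sets that match several sequences, averaging probe sets, leaving out MRP8 and RSM22, and, added after the data were seen, including the mitochondrial ribosomal proteins of other names. Across them the SIR2 median ran from -0.14 to -0.11 and the number of members below 0 from 46 to 57, the last of 81 genes. The steps on background, on shared sequences and on means over probe sets could not change the members. All 66 lay above background on every array, each had 1 probe set, and none of these was shared between sequences. The unchanged values from those steps are therefore no sign of stability. Centring and the repeated quantile normalization could move the members, and each gave a median of -0.11. A limit of 1.5-fold also gave 0, and a limit of 3-fold had to, since no member reached 2-fold. At 1.2-fold, added after the data were seen, 4 members were higher and 16 lower in the SIR2 deletion, 3 higher in the SIR3 deletion, and 1 higher and 3 lower in the SIR4 deletion. Against the mean of the other 3 arrays in place of wild type, the medians of the SIR3 and SIR4 deletions changed sign, to 0.023 and 0.016 for all members, 0.029 and 0.017 for the large subunit, and 0.0097 and 0.015 for the small subunit. The small subunit median of the SIR4 deletion was 0.0097 without MRP8 and RSM22. These medians are too near 0 to carry a direction from 0. In the SIR4 deletion the median of all genes was 0.028 against wild type and 0.030 against the other reference. The median of all members lay below it both times, at -0.030 and 0.016. In the SIR3 deletion the median of all genes was -0.008 both times, with the members at -0.023 and 0.023. Of 831 values of 31 named members under the alternatives, 49 moved by more than 0.1, all with the other reference. The 831 include values from the steps that could not change a member. No paired analysis was possible because each strain had 1 array, and for the same reason no replicate could be left out.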

Other observations

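Some genes beside the named members on the chromosome had values of similar size, and others did not. YJR115W, the protein-coding gene next to RSM7 in the R64 annotation, differed by 0.20, 0.26 and 0.32 (SIR2, SIR3, SIR4 deletion, in this order throughout), where RSM7 had 0.41, 0.26 and 0.29, and the gene on its other side, YJR112W-A, had 0.23, -0.01 and 0.11. ARC35, beside MRPS12, had 0.31, 0.25 and -0.02, and DBP6, beside RSM19, had -0.08, 0.02 and 0.10. SDH3, the respiratory gene beside MRP8, had 0.41, 0.36 and 0.12, while LTV1, a gene of cytosolic ribosome synthesis on its other side, had -0.81, -0.27 and -0.14. PDR15, beside MRP20, had 0.59, -0.83 and -0.38 and RPB7, on the other side, 0.09, 0.10 and 0.09, where MRP20 had 0.05, 0.56 and 0.18. YCP4, beside MRPL32, had 0.52, 0.40 and 0.05, where MRPL32 had -0.38, -0.08 and -0.01. The neighbours given here are a part of those looked up, and the share with similar values was not counted. These neighbours were looked up after the values of the members were seen, and their part in the members' values was not tested.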
